A study of Arabidopsis thaliana with 6 samples.

Results

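The genes described here had a moderately higher signal in leaves of the Arabidopsis thaliana mutant des1-1 than in wild-type leaves. The genes were chosen by their values on these arrays. A probe set was taken where it carried 1 gene and its lowest des1-1 value lay above its highest wild-type value. Its mean also had to be 0.5 to under 0.9 higher in des1-1 on the log2 scale, and its mean over all 6 arrays at least 5. Genes encoded in the organelles were left out, as were 10 probe sets of gene groups excluded by name, which include late anthocyanin enzymes, ATG8E and SWEET2. The rule took 77 of 22746 probe sets, and they stand for 77 different genes. Of the 13513 probe sets with 1 gene, 1313 had no overlap with des1-1 higher, 93 of these fell in the range of differences, all 93 reached the level, and 87 of them were nuclear.

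Leaves of 2 genotypes were compared on Affymetrix ATH1 arrays to find the genes that differ in the mutant, with 3 biological replicates each. The des1-1 plants are a SALK line, and the wild type is the accession Col-0 grown beside it. Leaves came from 3-week-old plants in soil supplied with Hoagland medium, under 16 h of white light at 20 °C and 8 h of darkness at 18 °C. The mutant is represented by a single allele. The number of plants in a sample was not given in the sources used here. In the annotation used, DES1 has no probe set with 1 gene, so the genotype labels were not checked against its level. Values are log2 expression values made with RMA, which corrects background, equalises the distributions of the arrays and gives 1 value per set of probes. A difference of 1 on this scale is a 2-fold difference.

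DES1 is a cytosolic L-cysteine desulfhydrase, a homolog of O-acetylserine(thiol)lyase that degrades cysteine to sulfide, ammonia and pyruvate. Cysteine is the first organic product of sulfate assimilation and the sulfur donor for methionine, glutathione and iron-sulfur clusters. Sulfide made in the cytosol is known as a signal in leaves, and plants without DES1 are known for early senescence and autophagy. Of the 77 genes, only SUFE2, CHIL, LigB and PRA1.G2 carry a symbol in the tables used. The other 73 are known there by locus number only, and no role is given for them. In the reference annotation, 76 are protein-coding genes and AT5G55420 is a transcribed pseudogene.

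Some measures of the arrays were fixed in part by the normalization and say little about quality. Array medians lay between 5.78 and 5.81, and arrays of 1 genotype correlated at 0.994 to 0.997 over all probe sets, which share the same normalization. The signal at 25S ribosomal RNA was 5.49 to 6.20 on 5 arrays and 10.20 on wild type 2. Mesophyll markers were bright, with means of 12.4 to 14.1 for the 5 of 12 that had a probe set, among them the Rubisco activase gene RCA. The root hair expansin genes EXPA7 and EXPA18 had means of 4.96 and 5.53. None of the 11 measured markers of mesophyll, root, stomatal lineage or trichome passed the test of genotype in limma, and 0 of them had an unadjusted p under 0.05. Markers of phloem, epidermis, flower and dividing cells were not measured by a probe set with 1 gene. In RNA from whole leaves, fewer cells of a type and less RNA per cell cannot be told apart.

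The differences that chose the genes are a description and carry no test. They lay between 0.50 and 0.82, with a median of 0.57, which is 1.41-fold to 1.77-fold with a median of 1.48-fold. Most lay near the lower end, since 54 genes differed by 0.5 to under 0.6, 13 by 0.6 to under 0.7, 9 by 0.7 to under 0.8 and 1 by more. The median over all 22746 probe sets was 0.00, and over the 8060 nuclear probe sets with 1 gene and a mean of at least 5 it was 0.02. The same criteria in the opposite direction took 102 lower genes, and 11 genes met the rule with a difference of 0.9 or more. In the limma fit over all probe sets, 7 of the 77 genes had an adjusted p under 0.05, which is 9.09%, beside 0.33% of all probe sets called higher, 0.0572% called lower and 0.387% called in either direction. Because the same contrast chose the genes, nothing is read from that share. The genes' adjusted p-values ran from 0.0212 to 0.213. The absence of overlap was also fixed by the rule, and 9.87% of all probe sets, or 13.1% of the nuclear ones, lay above wild type in the same way.

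**Figure D1:**
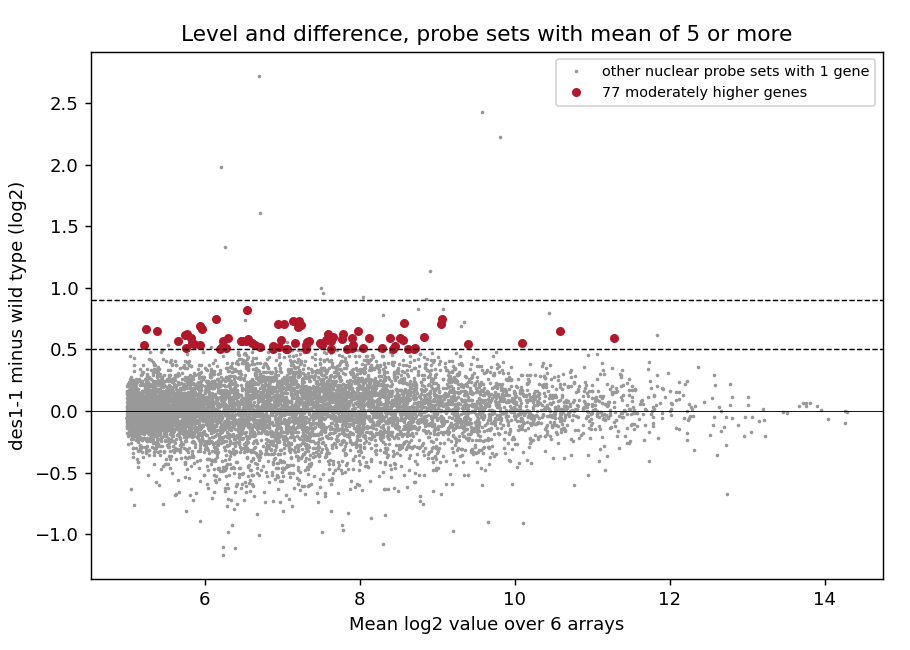
Mean log2 value over the 6 arrays (x axis) against the des1-1 minus wild type difference in log2 units (y axis) for nuclear probe sets with 1 gene and a mean of at least 5. Red points are the 77 genes, grey points the other probe sets, and dashed lines the limits of 0.5 and 0.9. The genes spread over means of 5.21 to 11.28, and grey points inside the limits were left out for overlap or by name.

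Among the 4 genes with a symbol, SUFE2 had the largest difference. It encodes a SufE-type protein that activates the plastid cysteine desulfurase, the enzyme that takes sulfur from cysteine for iron-sulfur clusters. SUFE2 had log2 values of 8.97, 8.91 and 8.93 in des1-1, against 8.01, 8.53 and 8.13 in wild type. The des1-1 arrays lay close together, and the lowest of them was 0.38 above wild type 2, the highest wild-type array. Means were 8.94 ± 0.03 in des1-1 and 8.22 ± 0.27 in wild type (SD, n = 3 each), a difference of 0.71 or 1.64-fold. The difference was 0.61 without wild type 1 and 0.87 without wild type 2. Without any des1-1 array it stayed between 0.70 and 0.73.

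CHIL encodes a chalcone isomerase-like protein that promotes flavonoid synthesis without being the isomerase itself. Its values were 7.93, 7.83 and 7.99 in des1-1, against 7.14, 7.43 and 7.48 in wild type. All 3 des1-1 arrays were close together and wild type 1 was the lowest array. The difference was 0.57 with an SE of 0.10, or 1.48-fold, and it was 0.46 without wild type 1.

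LigB encodes an extradiol ring-cleavage dioxygenase of arabidopyrone synthesis. Its values were 7.38, 7.74 and 7.59 in des1-1, against 7.01, 6.81 and 7.29 in wild type, a difference of 0.53 with an SE of 0.14. The genotypes nearly met, since des1-1 1 lay 0.09 above wild type 3. Without wild type 2 the difference was 0.42.

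PRA1.G2 belongs to the prenylated Rab acceptor family, small membrane proteins of vesicle traffic. Its values were 5.95, 6.14 and 6.33 in des1-1, against 5.65, 5.29 and 5.85 in wild type, a difference of 0.54 with an SE of 0.15. Here too des1-1 1 and wild type 3 nearly met, at a gap of 0.10. The difference was 0.39 without wild type 2 and 0.45 without des1-1 3.

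**Figure D2:**
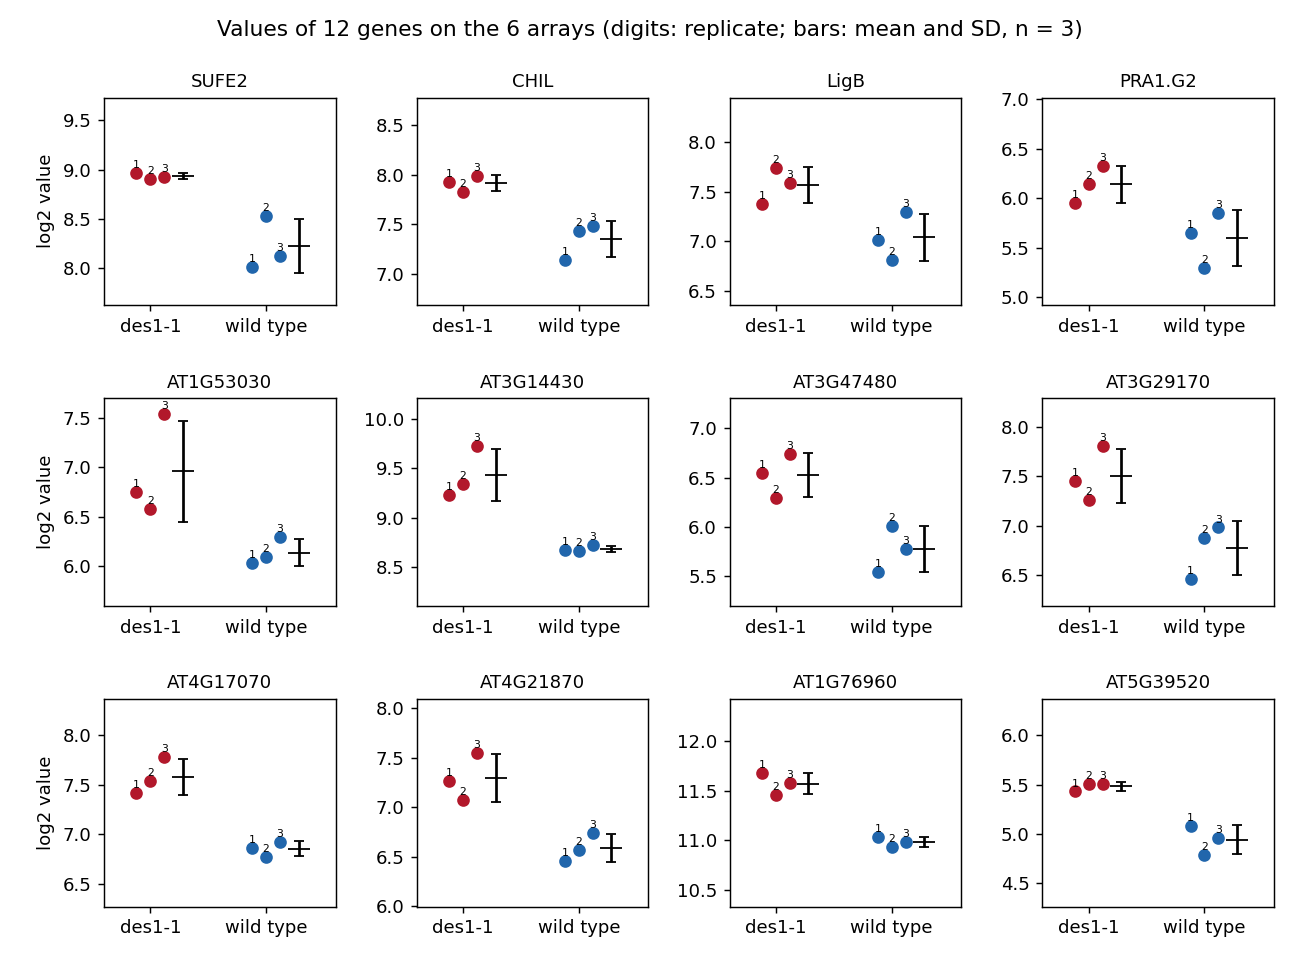
Log2 values of 12 of the genes on the 3 des1-1 arrays (red, left) and the 3 wild-type arrays (blue, right), with the replicate number at each point and the mean and SD as black bars; every panel has its own y axis. In SUFE2 the des1-1 points lie together, whereas in AT1G53030 and AT3G14430 des1-1 3 stands above the other des1-1 arrays.

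Genes of the same pathway or family as these 4 were then set beside them, from lists drawn up after the 77 genes were known. For plastid iron-sulfur cluster assembly, 3 of 12 genes had a probe set, and 0 passed the test in limma in either direction. At an unadjusted p under 0.05, SUFE2 itself was higher, which the rule fixed, and HCF101 lower. Over all probe sets 7.9% were higher and 7.66% lower at that p. CPNIFS, the desulfurase that SUFE2 activates, had values of 8.18, 8.27 and 8.36 in des1-1, against 8.28, 8.10 and 8.03 in wild type. Those values overlap, with a difference of 0.13 (95% interval -0.07 to 0.34). The scaffold protein gene HCF101 differed by -0.26 with an adjusted p of 0.32 in limma.

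Among 12 flavonoid enzyme genes, 5 had a probe set, 2 rose by the limma test and 0 fell, beside 0.33% and 0.0572% of all probe sets. At an unadjusted p under 0.05, 4 were higher and 0 lower, beside 7.9% and 7.66% of all probe sets. The rule fixed the direction of CHIL, which is among the 4. The others of the 4, DFR, UF3GT and AT4G14090, met every numeric part of the same rule. They were named in it with earlier results of these data known. Nothing is therefore read from these counts beside the shares. The 2 that rose were DFR and UF3GT, which encode late enzymes of anthocyanin synthesis, with differences of 0.72 and 0.83. AT4G14090 had 0.83, and all of these were left out of the 77 genes by name. CHIL differed by 0.57. BAN, which makes the precursors of seed coat tannins, differed by 0.01, but its mean of 4.73 was below the level of the rule, so this value says little.

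In the PRA1 family 11 of 19 genes had a probe set, and 0 of them passed the test in limma. Without PRA1.G2, whose direction the rule fixed, 3 of 10 were higher and 0 lower at an unadjusted p under 0.05, while 20.1% of the 3105 nuclear probe sets with a span under 2000 bases were higher at that p. The differences of these 10 genes were 0.03 to 0.45 with a median of 0.27. All 10 lay above 0, as did 69.3% of those short nuclear genes. The lowest difference of the family stayed above 0 under other scalings, at 0.04 after median centring, 0.0056 after quantile normalization and 0.0028 after cyclic loess. Next to PRA1.G2 stood PRA8 at 0.45 (95% interval 0.20 to 0.70) and PRA1.E at 0.41 (0.19 to 0.64). The family mean over all 11 genes was 7.16, 7.25 and 7.51 on des1-1 1, 2 and 3, against 6.94, 7.03 and 7.13 on wild type 1, 2 and 3. This mean includes PRA1.G2, for which the rule fixed the order of the genotypes. The family mean was highest on des1-1 3. These are short genes, with a median span of 1016 bases, and the relation of the difference to gene span is given below; its part here was not tested.

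The 8 pathway lists on jasmonate, ethylene, salicylic acid, abscisic acid, low sugar, senescence, oxidative stress and endoplasmic reticulum folding contain none of the 77 genes. Probe sets with 1 gene cover 22 of their 158 genes, 10 with a difference above 0 and 12 below it. In limma 0 rose and 1, the cold-induced COR15A, fell, beside 0.33% and 0.0572% of all probe sets. At an unadjusted p under 0.05, 2 were higher and 4 lower, beside 7.9% and 7.66% of all probe sets. Of these 4, 3 were COR15A, COR15B and COR47 of the abscisic acid list. With 22 genes measured the lists say little about these pathways. Of the senescence list, WRKY53, a regulator of leaf senescence, had a difference of -0.04 (95% interval -0.37 to 0.29). In the oxidative stress list STZ, a zinc finger gene, had 0.44 (0.19 to 0.69), with an adjusted p of 0.138.

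The genes known by locus number only include the larger differences of the range. AT1G53030 differed most, by 0.82 with an SE of 0.22. Its values were 6.75, 6.58 and 7.54 in des1-1, against 6.03, 6.09 and 6.29 in wild type. The array des1-1 3 stood far above the other mutant arrays, and without it the difference was 0.53. AT3G14430 had 9.23, 9.34 and 9.73 in des1-1, against 8.67, 8.66 and 8.72 in wild type, with a difference of 0.75. Its wild-type arrays were nearly equal (SD 0.03) and again des1-1 3 was highest, with a difference of 0.60 when it was left out.

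AT3G47480 had 6.55, 6.29 and 6.74 in des1-1, against 5.54, 6.01 and 5.78 in wild type, a difference of 0.75. Here the spread was alike in both genotypes, at an SD of 0.23 in des1-1 and 0.24 in wild type. AT3G29170 had 7.45, 7.26 and 7.80 in des1-1, against 6.46, 6.87 and 6.98 in wild type, a difference of 0.73. AT4G21870 had 7.27, 7.07 and 7.55 in des1-1, against 6.46, 6.57 and 6.74 in wild type, a difference of 0.71. In both, des1-1 3 was the highest array and wild type 1 the lowest.

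The 7 genes past the test had SDs below the medians of the 77 genes, 0.21 in des1-1 and 0.14 in wild type. Against the nuclear probe sets their spreads were not all narrow. AT4G17070 had an SD of 0.18 in des1-1, beside a median of 0.13 there. The following values describe which genes passed. AT3G56200 had the smallest adjusted p, at 0.0212 in limma, with 9.12, 9.20 and 9.06 in des1-1, against 8.48, 8.50 and 8.60 in wild type. AT5G18310 had 9.37, 9.31 and 9.54 in des1-1, against 8.76, 8.56 and 8.78 in wild type, and the widest gap between genotypes of the 77 genes, 0.53. In AT3G56200 the array des1-1 3 was the lowest of the mutant arrays, and in AT5G18310 it was the highest.

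AT1G76960 had 11.68, 11.46 and 11.58 in des1-1, against 11.03, 10.93 and 10.98 in wild type. Its mean of 11.28 was the highest of the 77, although brightness of different probe sets does not measure relative abundance. AT4G17070 had 7.42, 7.54 and 7.78 in des1-1, against 6.86, 6.77 and 6.92 in wild type, a difference of 0.73. AT2G39400 had 8.24, 8.46 and 8.21 in des1-1, against 7.68, 7.55 and 7.74 in wild type, a difference of 0.65. In these last 2 genes a different mutant array was highest, des1-1 3 in AT4G17070 and des1-1 2 in AT2G39400.

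The other 2 genes past the test were dim. AT5G60630 had 5.48, 5.76 and 5.50 in des1-1, against 4.99, 4.89 and 4.87 in wild type. The pseudogene AT5G55420 had 5.59, 5.85 and 5.68 in des1-1, against 5.01, 5.16 and 5.0 in wild type. In both, des1-1 2 was the highest array. The lowest mean of the 77, 5.21, belonged to AT5G39520, with 5.43, 5.51 and 5.51 in des1-1, against 5.08, 4.79 and 4.96 in wild type. RMA compresses differences of dim probe sets, and the median of the mean value over all 22746 probe sets was 5.81.

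**Figure D3:**
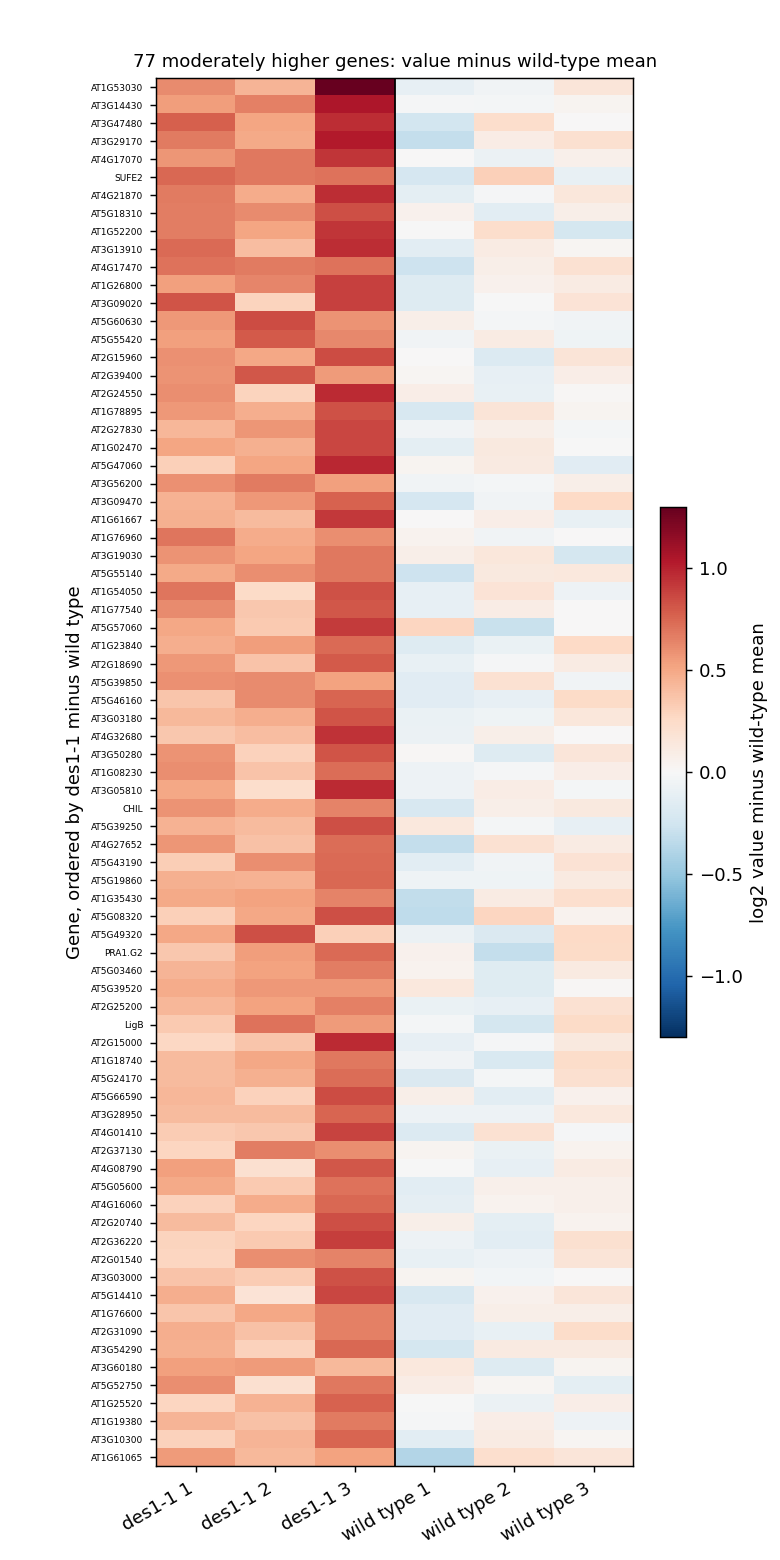
Value of each of the 77 genes (down the page, ordered by difference) on the 3 des1-1 arrays (left) and the 3 wild-type arrays (right), as log2 value minus the gene's wild-type mean; red is higher and blue lower. The column of des1-1 3 is the darkest in 63 of the 77 genes.

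The rule fixed the order of the genotypes, and the arrays within a genotype were uneven. Their order is not free of the rule either. A cut on the mean difference favours genes that are high on the mutant array furthest from wild type, or low on the wild-type array furthest from the mutant. The shares of the nuclear probe sets given beside the counts were not chosen in this way. The array des1-1 3 was the highest of the mutant arrays in 63 genes (81.8%), des1-1 2 in 9 and des1-1 1 in 3, with 2 ties. Over the 8060 nuclear probe sets des1-1 3 was highest in 42.1%. Among wild-type arrays, wild type 3 was highest in 41 genes (53.2%), against 31.8% of the nuclear probe sets, and wild type 1 was lowest in 42 (54.5%, against 36.1%). The median over the 77 genes was 7.42, 7.39 and 7.77 on des1-1 1, 2 and 3, against 6.76, 6.93 and 6.97 on wild type 1, 2 and 3. In 40 genes des1-1 3 was the highest and wild type 1 the lowest of all 6 arrays. The lower genes of the mirrored criteria showed the reverse, with des1-1 3 lowest of the mutant arrays in 83 of 102 (81.4%). The same arrays stood at the ends of the first principal component of all probe sets, which held 51.8% of the variance. Its scores were 1.37, 12.70 and 28.03 on des1-1 1, 2 and 3, against -19.55, -15.00 and -7.54 on wild type 1, 2 and 3. The part of this axis in the differences was not tested.

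Spread within des1-1 differed from gene to gene, with SDs of the 3 mutant arrays from 0.02 to 0.51. The examples from both ends were picked after their values were seen. The SD was 0.3 or more in 11 genes, and in all 11 des1-1 3 was the highest mutant array, beside 81.8% of the 77. AT2G15000 had 5.95, 6.04 and 6.65 in des1-1, against 5.57, 5.66 and 5.81 in wild type, a difference of 0.53. AT3G05810 had 6.46, 6.19 and 6.93 in des1-1, against 5.89, 6.06 and 5.93 in wild type, a difference of 0.57. In both genes 1 or more of the other mutant arrays lay close to the wild-type range.

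The SD was 0.1 or less in 10 genes, SUFE2 and CHIL among them. AT4G17470 had 6.30, 6.27 and 6.30 in des1-1, against 5.33, 5.67 and 5.79 in wild type, a difference of 0.69. AT5G39850 had 7.87, 7.89 and 7.80 in des1-1, against 7.13, 7.47 and 7.23 in wild type, a difference of 0.58. In these the wild-type arrays were the more spread. AT1G61065 lay at the lower limit with 6.50, 6.37 and 6.47 in des1-1, against 5.57, 6.17 and 6.10 in wild type, where wild type 1 alone was far below. Its difference was 0.31 without wild type 1. Over the 77 genes the median SD was 0.21 in des1-1 and 0.14 in wild type, beside 0.13 and 0.11 over the nuclear probe sets. The SD was larger in des1-1 in 50 genes (64.9%), against 60.7% of the nuclear probe sets.

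The array des1-1 3 was the lowest of the mutant arrays in 5 genes, AT5G49320, AT2G39400, AT3G56200, AT3G60180 and AT5G39850. AT5G49320 had 6.07, 6.40 and 5.88 in des1-1, against 5.49, 5.38 and 5.83 in wild type, so that des1-1 3 lay just above wild type 3. AT3G60180 had 8.91, 8.93 and 8.80 in des1-1, against 8.51, 8.21 and 8.41 in wild type, with a difference of 0.50.

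**Figure D4:**
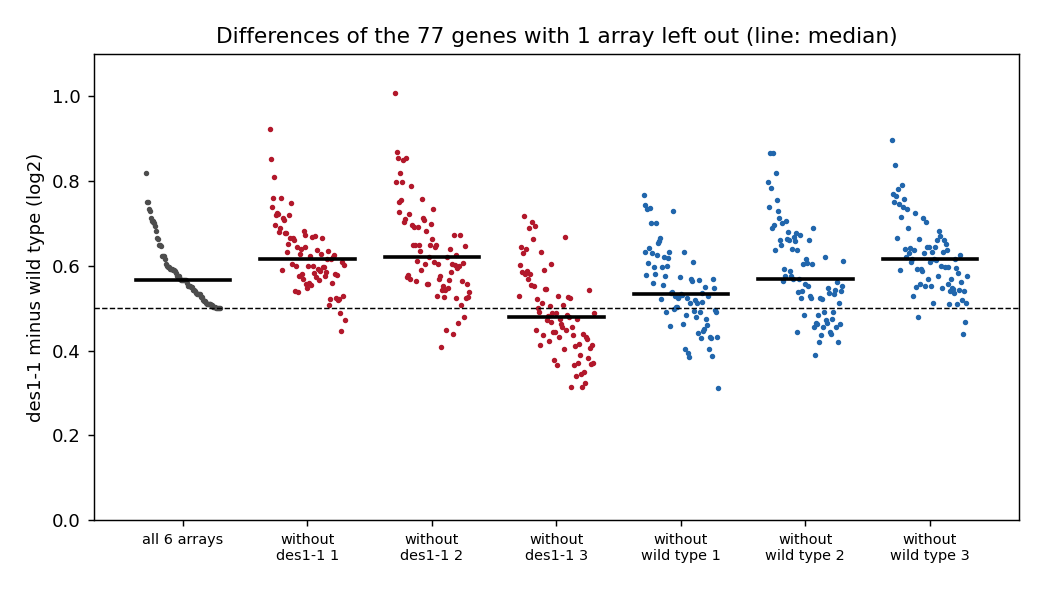
Differences of the 77 genes, des1-1 minus wild type in log2 units (y axis), on all 6 arrays and with 1 array left out at a time (x axis). Each point is a gene, the bar is the median, and the dashed line marks 0.5. The median is 0.48 without des1-1 3 and 0.53 to 0.62 without another array.

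With 1 array left out a difference could not fall below 0, because the rule allowed no overlap, but its size could change. Without des1-1 3 the median was 0.48, 32 genes kept a difference of 0.5 or more, and the rule applied to the other 5 arrays took 36 genes, of which 32 were among the 77. Without des1-1 1 it took 127 genes, with 73 of the 77, and without des1-1 2 it took 141, with 71. Without wild type 1 it took 61 genes, with 52 of the 77, and without wild type 2 it took 79, with 57. Without wild type 3 it took 117 genes, with 74. In 22 genes the difference was 0.5 or more without any array, and these include SUFE2, AT1G53030, AT3G14430 and all 7 genes past the test. The median gene span was 1343 bases in these 22 and 1626 bases in the other 55, and des1-1 3 was the highest mutant array in 14 of the 22.

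The 77 genes were short, a property the rule did not use. In the TAIR10.1 reference table their median span was 1566 bases, against 2294 bases over the 8042 nuclear probe sets with a span. A span under 1000 bases occurred in 15 genes (19.5%), against 7.29%, and a span over 3000 bases in 3 (3.90%), against 29.5%. The 3 are AT1G08230, AT3G09470 and AT4G08790, and the shortest gene, AT3G19030, spans 497 bases. The 11 genes with a difference of 0.9 or more had a median of 1130 bases. The 102 lower genes had a median of 4584 bases, none was under 1000 and 82 (80.4%) were over 3000 bases.

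Difference and span were related over the nuclear probe sets without the 77 genes. Spearman's rho was -0.39 over 7965 probe sets, which share the same 6 arrays and are not independent. The median difference was 0.06 under 1000 bases, 0.09 from there to 2000, 0.02 to 3000, -0.06 to 5000 and -0.16 above. Pairs of arrays within a genotype differed in this relation. The steepest was des1-1 3 minus des1-1 1, with medians of 0.07, 0.10, 0.02, -0.05 and -0.21 over these classes (rho -0.32), and rho was -0.21 for des1-1 3 minus des1-1 2 and -0.15 for des1-1 2 minus des1-1 1. Wild type 3 minus wild type 1 had 0.01, 0.04, 0.02, -0.01 and -0.11 (rho -0.15), and rho was -0.13 for wild type 3 minus wild type 2. Wild type 2 minus wild type 1 had almost no slope, with -0.01, 0.02, 0.01, 0.01 and -0.03 (rho -0.03). For des1-1 1, the mutant array nearest to wild type on the first component, the difference from the wild-type mean had 0.02, 0.05, 0.02, -0.04 and -0.08 (rho -0.25). With the median of the span class taken off, the 77 differences were 0.41 to 0.73 with a median of 0.49. The class medians are small beside the lower limit of the rule, so this range follows from how the genes were chosen. The control probe sets for RNA integrity differed in part. The 3′ minus 5′ signal of 1 GAPDH pair was -0.47 ± 0.13 in des1-1 and -0.68 ± 0.05 in wild type (SD, n = 3 each). A second GAPDH pair had 0.97 ± 0.12 in des1-1 and 1.01 ± 0.23 in wild type, and actin had 1.32 ± 0.08 in des1-1 and 1.28 ± 0.17 in wild type. The part of span or RNA quality in the genes' differences was not tested.

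**Figure D5:**
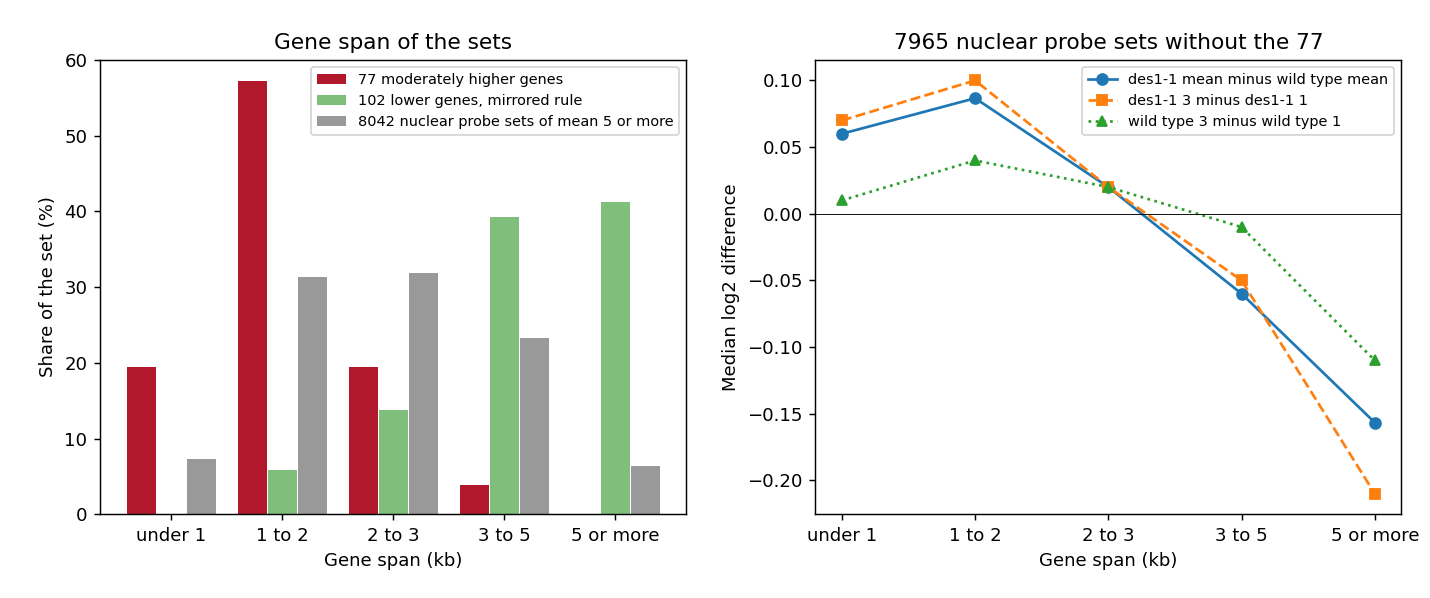
Left, share of each set (y axis, percent) by gene span in kb (x axis) for the 77 genes (red), the 102 lower genes (green) and the nuclear probe sets (grey). Right, median log2 difference (y axis) by gene span class (x axis) over the nuclear probe sets without the 77, for the genotypes and for 2 pairs of arrays within a genotype. Short genes lie above 0 and long genes below it in every line. The line of wild type 3 minus wild type 1 is the flattest, with medians between 0.04 and -0.11.

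The genes lay on all chromosomes. Chromosomes 1 to 5 held 18, 12, 16, 9 and 22 of them, or 23.4%, 15.6%, 20.8%, 11.7% and 28.6%, against 26.2%, 15.1%, 20.5%, 14.3% and 23.7% of the nuclear probe sets. No gene lay within 5 genes of another. Of the genes directly beside them in TAIR10.1, 67 had a probe set, with a median difference of 0.03, a range of -0.81 to 0.39, and none at 0.5 or more. Neighbours thus lay both above 0 (39) and below it (27).

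A second probe set with 1 gene was present for 2 of the 77 genes, on the same arrays. AT3G09470 had 8.68, 8.79 and 8.99 in des1-1, against 8.01, 8.18 and 8.48 in wild type, a difference of 0.60. Its other probe set had 8.21, 8.20 and 8.38 in des1-1, against 7.96, 8.08 and 8.18 in wild type, a difference of 0.19. AT2G20740 had 8.06, 7.93 and 8.49 in des1-1, against 7.73, 7.52 and 7.70 in wild type, a difference of 0.51. Its other probe set had 9.29, 9.38 and 9.27 in des1-1, against 9.09, 8.78 and 9.13 in wild type, a difference of 0.31. For both genes the second probe set was higher in des1-1 without overlap, as were 13.1% of the nuclear probe sets. In AT3G09470 the genotypes nearly met there, at 8.20 on des1-1 2 and 8.18 on wild type 3. Both differences were below the lower limit of the rule.

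The limits of the rule separated near-equal values. Differences of 0.50 put AT5G52750, AT1G25520, AT1G19380, AT3G10300 and AT1G61065 just inside, while AT4G08330, AT3G10210 and AT2G40435 lay just outside at 0.497 each. AT4G08330 had 7.24, 7.38 and 7.76 in des1-1, against 6.93, 6.96 and 7.0 in wild type. AT1G25520, just inside, had 7.08, 7.25 and 7.56 in des1-1, against 6.79, 6.72 and 6.88 in wild type. The 2 genes have like profiles, with des1-1 3 highest in each. At the upper limit AT5G58570 at 0.91, AT3G23550 at 0.93 and AT4G38540 at 0.96 were the nearest outside. The smallest gap between genotypes was 0.02, in AT5G14410, with 7.29, 6.99 and 7.69 in des1-1, against 6.61, 6.87 and 6.97 in wild type. Gaps had a median of 0.27, with 7 genes under 0.1 and 25 at 0.3 or more.

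Another scaling of the arrays left the order of the genotypes in place. All 77 genes were without overlap after median centring, quantile normalization and cyclic loess, with medians of 0.58, 0.57 and 0.55. The rule chose the genes for that order, and RMA had already equalised the distributions of the arrays. Little change was therefore possible, and nothing is read from the order. The rule kept 77, 68 and 63 of them. The lowest differences were 0.49 after quantile normalization and 0.48 after cyclic loess.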

How the data were processed

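Leaf RNA of 3 des1-1 and 3 wild-type samples was hybridised to Affymetrix ATH1 arrays, 1 array per sample. The authors deposited log2 expression values with 2 decimals. RMA and affy are named as tools, per the submitters' processing notes, and their versions were not given in the sources used here. The table holds 22810 probe sets. Tests excluded the 64 Affymetrix controls. A platform annotation named 13513 probe sets with 1 gene and 503 with several, and left 8730 unnamed here. Symbols, neighbours and gene spans came from a TAIR10.1 gene table, in which 13436 of the 13513 were found. Coordinates are left out, since the genome build of the array annotation was not stated.

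The test of des1-1 against wild type was limma 3.58.1 under R 4.3.3 (lmFit, then eBayes with defaults, two-sided, no covariate), with Benjamini-Hochberg adjustment over 22746 probe sets. SE, 95% intervals and p-values come from this fit, which was tested on simulated data. "Rose" and "fell" mean an adjusted p under 0.05. Other calculations used Python 3.11.15 and pandas 2.3.3, and plots matplotlib 3.10.9. Arrays have no read depth, and their number limits the precision. No array duplicated another, since any pair differed in at least 97.1% of values.

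The 77 genes and all gene lists were chosen with earlier results of these data known. The rule for named genes took up to 6 genes with the largest difference per role class, here genes with a symbol and genes without one because the tables used hold no descriptions. It also took genes with a second probe set, the highest and lowest mean, and genes nearest the limits of the rule, 19 in all. Other genes named were chosen after their values were seen. Promoter motifs and protein likeness were not analysed here. The main fit did not pair samples by replicate number, and a replicate block was fitted as an alternative. The correlations of same-numbered deviations were 0.17, -0.23 and 0.21. Whether same-numbered samples were handled together was not tested.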

Additional observations from a re-analysis of the deposited data

How the results depend on the processing

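The median difference of the 77 genes was 0.48 to 0.62 with each array left out. Under every alternative in which it was recomputed, it moved by less than the spread of the genes' array medians within genotypes, 0.17. The rule bounded these differences and des1-1 3 widened that spread, so no stability is read from this. The count of these genes past the limma test, 7 on all arrays, depended on the setting. Beside the calls over all probe sets, 88 on all arrays, it was 9 of 98 after median centring, 11 of 104 after quantile normalization, 11 of 102 after cyclic loess, 17 of 130 without the dimmest 25% of probe sets and 14 of 115 without the dimmest 50%, where 70 of the 77 remained. It was 19 of 151 with an intensity trend, 7 of 79 with robust eBayes, 11 of 98 with array weights and 21 of 183 with a replicate block (94 higher, 89 lower). With 1 array left out it ran from 0 to 34: 34 of 765 without des1-1 1, 1 of 39 without des1-1 2, 2 of 46 without des1-1 3, 0 of 28 without wild type 1, 1 of 22 without wild type 2 and 0 of 20 without wild type 3. Calls over all probe sets thus ran from 20 to 765. At an unadjusted p under 0.05, 76 of the 77 passed without wild type 1 and 77 without wild type 3, beside 10.4% and 13.8% of all probe sets; the contrast chose these genes, so nothing is read from it. The rule took 36 to 141 genes with 1 array left out. With both wild type 2 and des1-1 3 left out, a setting known from an earlier analysis, gave 39 genes by the rule, 9 calls over all probe sets and 0 of the 77 past the test in limma, with 74 at an unadjusted p under 0.05, beside 8.05% of all probe sets. The cause of these changes was not tested. For the 19 genes named by rule, 260 values under an alternative stayed on their side of the threshold, 32 newly passed it and 11 no longer did. With arrays left out their direction was fixed by the rule. The alternative promoter window was not run.

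Limits: 3 arrays per genotype, 1 allele, and no probe set with DES1 as its only gene in the annotation used. The 77 genes were defined by the contrast that describes them, and their make-up depends on des1-1 3.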
